A study of Danio rerio with 6 samples.

Results

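Zebrafish embryos injected with a morpholino against Spt5 were compared with untreated embryos of the same age, 21 hours post-fertilization (hpf), to find which transcripts differed and which of those differences exceeded those of embryos injected with a control morpholino. The comparison was chosen by sample title and holds 3 of the 6 arrays of the series: 2 of Spt5 morpholino embryos and 1 of untreated embryos at 21 hpf. A further 2 arrays of control morpholino embryos at 21 hpf measured injection alone, and 1 array of untreated embryos at 5 hpf served only to describe earlier levels. RNA came from whole embryos of the TL strain kept in E3 medium. Spt5 morpholino embryos had received about 2.5 pmol of the Spt5 oligo at the stages of 1 or 2 cells, and control embryos 2.5 pmol of a commercial standard control oligo at the same stages; both oligos carried a carboxyfluorescein tag. Untreated embryos were not injected at all, so the control arrays differ from the untreated array by the needle, the solution and an oligo together. The labels do not say how many embryos were pooled or whether the replicates came from separate clutches, and p-values therefore rest on a spread between arrays that may be no more than technical.

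A morpholino is a synthetic antisense oligo that binds a transcript and blocks its translation or its splicing. The Spt5 oligo is shown because it is what the Spt5 morpholino embryos received.
Spt5 morpholino: gtttctctacagtctgtcgctcctg
It has 25 bases, of which 13 are G or C. Where it binds the transcript was not analysed here, so the level of that transcript does not check the knockdown. The transcript of supt5h, which encodes Spt5, stood at a log2 intensity of 7.78 on the untreated array, 7.64 and 7.46 on the control arrays and 7.74 and 7.45 on the Spt5 arrays. The untreated array was highest and the injected groups overlapped; the difference between Spt5 morpholino and untreated embryos was -0.19 ± 0.17 (log2, SE; n = 2 and 1; limma adjusted p = 0.42).

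Spt5 pairs with Spt4 to form DSIF, a factor that travels with RNA polymerase II. With NELF it holds the polymerase in a pause just after the start of a gene, and after phosphorylation by P-TEFb it promotes elongation. At this age zebrafish embryos are forming somites, a heart tube, primitive blood cells and migrating neural crest, and neural progenitors divide beside the first neurons. Morpholinos are also known in zebrafish for a response of p53 target genes that can accompany injection whatever the intended target.

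Affymetrix zebrafish arrays report an intensity for each probe set, a group of probes for one transcript. Deposited median intensities at 21 hpf were 26.9 and 36.2 on the Spt5 arrays, 32.6 and 44.0 on the control arrays and 40.3 on the untreated array, and an intensity of 32 was reached by 7156 to 8961 of 15502 probe sets. The log2 intensities of the untreated array correlated at r = 0.909 and 0.907 with the Spt5 arrays and at 0.947 and 0.941 with the control arrays; probe sets are not independent replicates. Of 30 marker genes of embryonic tissues, 26 were on the array and 21 lay above an intensity of 32 in untreated embryos, among them markers of muscle, heart, blood, neural tissue, neural crest, epidermis, notochord and endothelium. The myeloid markers mpx, lyz and spi1b, the germ cell marker ddx4 and myod1 lay below it. The 3'/5' signal ratio, which rises as RNA is degraded or cRNA shortened, was 7.59 for actin on the untreated array, 6.94 and 6.99 on the Spt5 arrays and 9.91 and 9.61 on the control arrays. For GAPDH it was 1.24, then 1.39 and 1.42, then 1.70 and 1.76. Its part in the results was not tested.

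Much of the measured transcriptome differed between Spt5 morpholino and untreated embryos, in both directions, and few transcripts passed the test between control morpholino and untreated embryos. Values were taken to log2 and brought to a common distribution over the 5 arrays at 21 hpf. The 8701 probe sets that reached log2 5 (an intensity of 32) on 2 or more arrays were tested in 1 limma fit. Transcripts above this floor only on the 2 arrays of 1 morpholino passed, whereas those above it only on the untreated array did not. Some rises counted below, such as that of gadd45aa, thus entered through the Spt5 arrays alone. At an adjusted p under 0.05, 2001 probe sets (23.0%) were higher and 1822 (20.9%) lower with the Spt5 morpholino than untreated. The control morpholino, tested against the same untreated array with the same numbers of arrays, gave 152 higher (1.75%) and 98 lower (1.13%). At least 2-fold and called, the Spt5 counts were 642 and 748 and the control counts 94 and 51. The median absolute log2 difference from untreated embryos over all tested probe sets was 0.43 in Spt5 and 0.21 in control morpholino embryos. Both comparisons share the untreated array, whose own deviation enters them alike, and as the only untreated array at this age it could not be left out of any fit. A difference that did not pass the test with the control morpholino is not shown to be absent there: 2032 probe sets had an unadjusted p under 0.05 in that comparison. Its adjusted calls were also few, and far fewer were left when any 1 injected array was left out. Each such fit has fewer residual degrees of freedom than the 2 of the main fit. A loss of control calls in it, here or in the lists below, therefore does not tell whether a gene rests on a single array.

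A difference was counted as exceeding injection where the Spt5 morpholino differed from untreated embryos and also from control morpholino embryos in the same direction, each at an adjusted p under 0.05. The second condition tests the difference between the 2 injected groups, in which the untreated array cancels out. It held for 1456 probe sets that were higher (16.7%) and 1467 that were lower (16.9%). Because the Spt5 arrays enter both conditions, part of this overlap is built in. In the class that was higher, the median log2 difference from untreated embryos was 0.86 in Spt5 and 0.16 in control morpholino embryos, and in the class that was lower -0.98 and -0.12. The control morpholino was itself called in the same direction for 67 of the higher and 27 of the lower probe sets, and in the opposite direction for 7 and 4. At least 2-fold from both other groups lay 263 higher and 503 lower probe sets. Without any model, both Spt5 arrays lay at least 2-fold above each of the 3 other arrays for 169 probe sets (1.94%) and at least 2-fold below for 381 (4.38%).

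Differences not shown to exceed injection made up the rest. Of the probe sets called against untreated embryos, 534 higher and 342 lower ones were not called between the morpholinos, with median log2 differences of 0.64 with the Spt5 and 0.47 with the control morpholino among the higher, and -0.61 and -0.43 among the lower. The control morpholino was itself called against untreated embryos for 57 and 22 of these. A further 11 higher and 13 lower probe sets were called between the morpholinos in the opposite sense, so that the control embryos lay further from untreated embryos than the Spt5 embryos did.

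**Figure D1:**
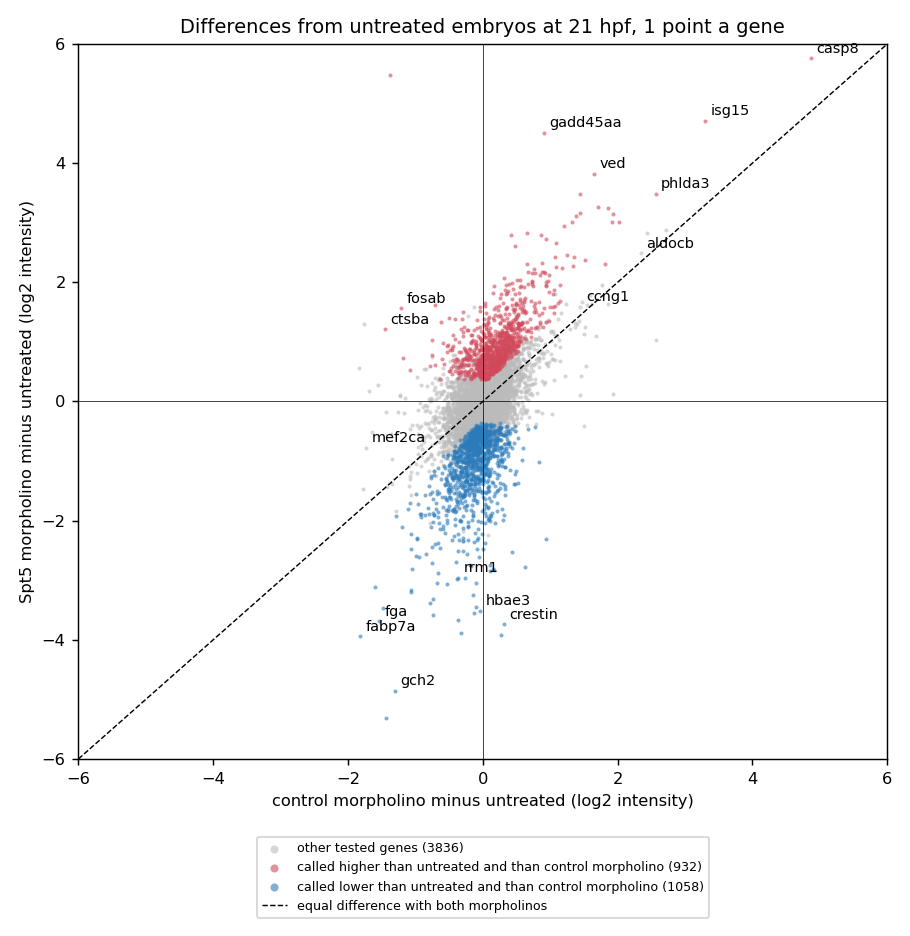
Log2 difference from untreated embryos for 5826 named genes, 1 point each, with the control morpholino on the x axis and the Spt5 morpholino on the y axis; red and blue mark the 932 and 1058 genes called higher and lower than both untreated and control morpholino embryos, and the dashed line marks equal differences. Both axes subtract the same untreated array, so points lie near the diagonal in part by construction; casp8, isg15 and phlda3 lie far out on both axes, while crestin and hbae3 lie far down the y axis close to 0 on the x axis. The point near 5.48 on the y axis at the upper left is rcvrn3, a recoverin gene.

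The balance of higher and lower calls depends on how the arrays are scaled. With log2 values as deposited, 255 probe sets were higher and 1270 lower than in untreated embryos, and with arrays centred on the bacterial spike-in controls 926 and 3408. The median probe set then differed by -0.28 and -0.33 on the log2 scale, against 0.03 in the main setting. All differences below are relative to the common distribution. Without Spt5 replicate 1 or 2, 1240 and 1170 probe sets were higher than untreated, and 725 and 642 higher beyond injection. Without the floor on dim values, 293 of all 15502 probe sets were higher and 356 lower than untreated, 146 and 302 of them beyond injection, and none was called with the control morpholino, where 2013 had an unadjusted p under 0.05.

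Among named genes, counted once each by the brightest probe set, 1270 of 5826 (21.8%) were higher and 1275 (21.9%) lower than untreated with the Spt5 morpholino, 932 (16.0%) and 1058 (18.2%) beyond injection, and 100 (1.72%) and 54 (0.927%) with the control morpholino. These shares are the background for the gene lists below. Lists are described by counts and medians without a test of the list. Where a group lay below the floor of log2 5 on all of its arrays, the fold is a lower bound taken against that floor and is written as at least so many fold. Whole embryos were measured, so fewer cells of a type and less RNA per cell cannot be told apart.

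Many genes of the p53 pathway and apoptosis rose with the Spt5 morpholino, and part of them rose with the control morpholino too, less far. Of 27 tested members of this list, 20 rose and 4 fell with the Spt5 morpholino against untreated embryos, 18 and 4 of them beyond injection. Some members, such as gadd45aa, bbc3 and pmaip1, passed the floor through the Spt5 arrays alone, so the share of rises rests in part on such entry. With the control morpholino 10 rose and 0 fell. The median log2 difference from untreated embryos was 1.59 with the Spt5 and 0.65 with the control morpholino, against medians near 0 over all genes; with dim values raised to the floor of log2 5 the Spt5 median was 1.25. In 18 of the 27 genes the arrays rose in the order untreated, control, Spt5 without overlap. That order was found upward in 17.4% and downward in 15.9% of all named genes tested. Because 20 members rose with the Spt5 morpholino, part of it is built in, and those shares are no measure of the control difference.

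The initiator caspase gene casp8 stood at 1.34 on the untreated array, 6.33 and 6.09 on the control arrays and 7.19 and 7.0 on the Spt5 arrays. Its untreated value lies below the floor, so it rose at least 4.27-fold with the Spt5 morpholino (limma adjusted p = 6.4e-04) and at least 2.31-fold with the control morpholino (adjusted p = 0.0058). The step from control to Spt5 was 0.88 ± 0.13 on the log2 scale (adjusted p = 0.0063). The ubiquitin-like modifier gene isg15, known for its induction by interferon, had the same order, with 2.77 untreated, 6.07 and 6.08 control and 7.41 and 7.57 Spt5. phlda3, whose mammalian product restrains Akt signalling, had 4.58 untreated, 7.18 and 7.12 control and 8.08 and 8.05 Spt5, and rose at least 8.39-fold with the Spt5 and 4.43-fold with the control morpholino. In these 3 genes no array of one group reached the range of another.

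Genes bright in every group had the same pattern with measured folds. sesn3, a sestrin of the stress response, stood at 7.84 on the untreated array, 9.78 and 9.78 on the control arrays and 10.96 and 11.02 on the Spt5 arrays, a log2 difference from untreated of 3.15 ± 0.11 with the Spt5 and 1.94 ± 0.11 with the control morpholino. rps27l, a paralog of a ribosomal protein gene and a p53 target in mammals, stood at 7.86 on the untreated array, 9.88 and 9.87 on the control arrays and 10.88 and 10.87 on the Spt5 arrays. mdm2, which encodes the ubiquitin ligase that limits p53, rose by 2.45 ± 0.14 and 1.26 ± 0.14, and the forkhead factor gene foxo3b by 2.42 ± 0.14 and 1.36 ± 0.14. All of these also rose between the morpholinos, by 1.21, 1.0, 1.2 and 1.06. Of the BH3-only death genes, bbc3 and pmaip1 rose at least 2.38-fold and 2.28-fold with the Spt5 morpholino; their untreated and control arrays all lay below the floor, so their control calls rest on dim values (3.0 against 4.92 and 4.81 for bbc3).

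ccng1, a cyclin G gene and p53 target, was the member called with both oligos that did not exceed injection. It stood at 10.36 on the untreated array, 11.74 and 11.87 on the control arrays and 11.91 and 11.98 on the Spt5 arrays, so the untreated array was low and the injected groups were within 0.14 ± 0.10 of each other (adjusted p = 0.31). At the other end, gadd45aa, a growth arrest and DNA damage gene, stood at 3.73 on the untreated array, 4.61 and 4.67 on the control arrays and 8.39 and 8.10 on the Spt5 arrays. It rose at least 9.47-fold over untreated embryos, and with the control morpholino all arrays stayed below the floor. The control difference of gadd45aa, 0.91 ± 0.16 (limma adjusted p = 0.060), thus lies among dim values. gadd45bb and gadd45ga, of the same family, rose at least 6.1-fold and 3.65-fold with the Spt5 morpholino and were not called with the control morpholino. The pore-forming baxa rose by 2.3 ± 0.11 with the Spt5 morpholino, and its control difference of 0.65 ± 0.11 had an adjusted p of 0.057.

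The members that fell were mdm4, a partner of mdm2 that restrains p53, by 0.82 ± 0.12, the BCL2-family genes bida (at least 1.54-fold) and mcl1a (by 0.65 ± 0.15), and ckap5, a microtubule polymerase gene that is no apoptosis gene, by 1.07 ± 0.11. None of these was called with the control morpholino. Fewer than the 10 members were called with the control morpholino when any 1 injected array was left out. Such fits have fewer residual degrees of freedom and lose control calls over all probe sets, so this loss is not particular to the list. In the main fit, at an unadjusted p under 0.05, 15 members were higher with the control morpholino and 0 lower. With the values as deposited, 10 members were higher beyond injection. Of the 27 members, 25 passed the floor without Spt5 replicate 1 and 24 without Spt5 replicate 2.

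**Figure D2:**
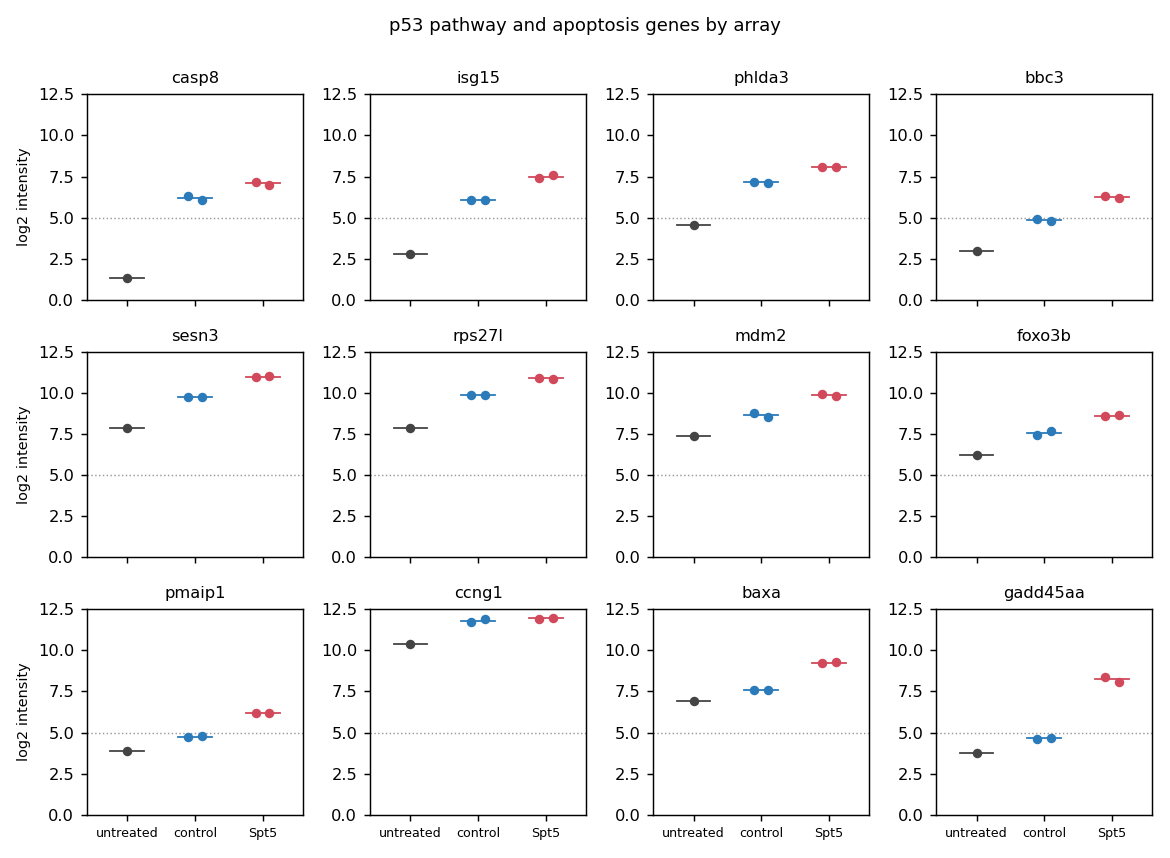
Log2 intensity of 12 genes of the p53 and apoptosis list on the untreated array (grey), the 2 control morpholino arrays (blue) and the 2 Spt5 morpholino arrays (red); bars are group means and the dotted line is the floor of log2 5. casp8, isg15, phlda3, sesn3 and rps27l climb in 2 steps, and ccng1 in 1 step shared by both oligos. gadd45aa lies below the floor on the untreated and control arrays and far above it on the Spt5 arrays.

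Transcripts of cell cycle and DNA replication genes fell across nearly the whole list. Of 67 tested members, 61 fell and 0 rose with the Spt5 morpholino against untreated embryos, 60 of them beyond injection, where 18.2% of all named genes fell. With the control morpholino 0 members were called by limma, and 15 were lower and 0 higher at an unadjusted p under 0.05. The median log2 difference from untreated was -1.36 with the Spt5 and -0.17 with the control morpholino. In 42 of the 67 genes the arrays fell in the order untreated, control, Spt5 without overlap, against 15.9% of all named genes. In those genes the control arrays lay below the untreated one. Because 61 members fell with the Spt5 morpholino, part of this order is built in. The share over all genes is therefore no measure of the control difference.

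The ribonucleotide reductase subunit gene rrm1, which supplies deoxynucleotides, stood at 9.92 on the untreated array, 9.53 and 9.58 on the control arrays and 7.05 and 6.88 on the Spt5 arrays, and fell by 2.96 ± 0.13 against untreated embryos (adjusted p = 7.9e-04). The Spt5 arrays were far below the 3 others, which lay close together. Among replication factors, the polymerase delta subunit pold2 fell by 2.11 ± 0.18, the helicase subunits mcm2 and mcm5 by 1.86 ± 0.16 and 1.81 ± 0.13, the single-strand binding subunit rpa2 by 1.80 ± 0.13, the clamp loader subunit rfc1 by 1.75 ± 0.13 and the dUTPase gene dut by 1.84 ± 0.12. gins1, of the helicase complex, and the origin subunit orc5 fell to below the floor, by at least 3.11-fold and 1.87-fold. mcm6 had the largest control difference among the replication genes named here, -0.91 ± 0.15 (adjusted p = 0.054), beside -1.89 ± 0.15 with the Spt5 morpholino.

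Other members of the list that fell had roles around mitosis or nuclear import: the nuclear import receptor gene kpna2 fell by 2.09 ± 0.14, and the topoisomerase gene top2a fell by 2.02 ± 0.28. The cyclin gene ccnb2 and the survivin gene birc5a fell by 0.77 ± 0.15 and 0.60 ± 0.15. The 6 members without a call against untreated embryos were the G1 cyclin genes ccnd1 (log2 difference -0.02) and ccne1 (0.08), the licensing factor cdt1 (-0.37), the origin subunit orc3 (-0.43) and the kinetochore and checkpoint genes nuf2 (-0.35) and bub3 (-0.27). Under every scaling tried the list kept 0 rises beyond injection, with 54 falls as deposited, 63 with spike-in centring and 60 with median centring.

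Structural genes of muscle and heart and the globin genes fell with the Spt5 morpholino and were not called with the control morpholino, while several transcription factor genes of the same tissues rose. Of 30 skeletal muscle structural genes tested, 19 fell and 6 rose against untreated embryos, 18 and 3 of them beyond injection. The latter are 60% and 10% of the list, against 18.2% and 16.0% of all named genes. The control morpholino gave 0 limma calls, with 5 higher and 2 lower at an unadjusted p under 0.05. The median log2 difference was -0.85 with the Spt5 and 0.02 with the control morpholino. The creatine kinase gene ckmb stood at 9.52 on the untreated array, 9.42 and 9.42 on the control arrays and 6.23 and 5.90 on the Spt5 arrays, and fell by 3.45 ± 0.17 (adjusted p = 8.0e-04). The fast myosin light chain gene mylpfa stood at 9.98 on the untreated array, 10.10 and 10.16 on the control arrays and 7.19 and 7.14 on the Spt5 arrays. In both genes the control arrays lay near the untreated one, and the Spt5 arrays lay more than 2-fold below.

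Other falls among fast muscle genes were those of the myosin heavy chain gene myhz1.3, which the list does not hold, by 3.05 ± 0.15, of ckma by 2.76 ± 0.12, of the light chain genes mylz3 and myl1 by 2.48 ± 0.12 and 1.99 ± 0.12, and of the calcium pump gene atp2a1 by 1.52 ± 0.11. The parvalbumin gene pvalb2 fell at least 4.85-fold. Smaller falls were measured in the intermediate filament gene desma (0.54 ± 0.12) and the actin gene actc1b (0.50 ± 0.12). The slow myosin gene smyhc1 was not called, at a log2 difference of -0.06 ± 0.11 from untreated embryos. Those that rose beyond injection were the giant filament genes neb and ttn.2, by 0.78 ± 0.15 and 0.76 ± 0.19, and the troponin gene tnnt3b, at least 1.69-fold. These 3 rises became 0 as deposited, 1 with spike-in centring, and 1 and 0 without Spt5 replicates 1 and 2.

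Myogenic transcription factor genes went the other way: of 10 tested, 5 rose and 1 fell against untreated embryos. The median log2 difference was 0.55 with the Spt5 and 0.35 with the control morpholino. At an unadjusted p under 0.05, 3 were higher and 1 lower with the control morpholino. Beyond injection were 4 rises and 0 falls, 40% and 0% of the list, against 16.0% and 18.2% of all named genes. The 4 rises were myod1, at least 2.23-fold, myf5 by 1.07 ± 0.17, mef2d by 0.50 ± 0.12 and msgn1, a gene of presomitic mesoderm, by 1.2 ± 0.12. With the values as deposited 0 of them exceeded injection, with spike-in centring 2, and without Spt5 replicate 2 there was 1. myog, which drives terminal differentiation, was not called, at 0.31 ± 0.14. mef2ca stood at 6.19 on the untreated array, 4.59 and 4.34 on the control arrays and 5.31 and 5.53 on the Spt5 arrays. It was lower with both oligos and lowest with the control oligo. Its difference between the morpholinos thus had the opposite sign to its difference from untreated embryos. No member of this list kept a call with the control morpholino when any 1 injected array was left out.

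The heart list split by role in the same way. Of 9 tested genes, the 5 contractile and sarcomeric genes fell and the 4 transcription factor genes rose, all beyond injection. limma made 0 calls with the control morpholino, with 1 higher and 1 lower at an unadjusted p under 0.05. The cardiac light chain gene myl7 stood at 7.32 on the untreated array, 7.46 and 7.49 on the control arrays and 4.15 and 4.82 on the Spt5 arrays, and fell at least 4.98-fold. The light chain gene cmlc1 and the myosin gene myh7 fell at least 5.04-fold and 2.97-fold, the troponin gene tnnt2a at least 1.84-fold, and nexn by 1.95 ± 0.15. The factors hand2, gata5, nkx2.7 and gata6, which act in cardiac progenitors, rose by 0.82 ± 0.11, 0.77 ± 0.14, 1.03 ± 0.16 and 1.29 ± 0.13. As deposited, the 5 falls were called and none of the 4 rises was. gata5 and gata6 are also genes of endoderm and the yolk syncytial layer, and whole embryos do not tell the sources apart.

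Erythroid genes fell in 9 of 18 cases and rose in 3, all beyond injection. These are 50% and 16.7% of the list, against 18.2% and 16.0% of all named genes, so the share of rises was near the background. Against untreated embryos the control morpholino had 0 limma calls, with 2 higher and 5 lower at an unadjusted p under 0.05. The median log2 difference from untreated was -0.81, or -0.25 with dim values raised to the floor, and -0.31 and -0.24 without control replicates 1 and 2, where 17 and 16 members were tested. The embryonic alpha globin gene hbae3 stood at 10.46 on the untreated array, 10.47 and 10.37 on the control arrays and 7.13 and 6.77 on the Spt5 arrays, and fell by 3.51 ± 0.18 (adjusted p = 9.2e-04); its other probe set gave -3.78. The beta globin genes hbbe3 and hbbe2 fell by 2.98 ± 0.11 and 2.75 ± 0.18. With the control morpholino the 3 globin genes differed from untreated embryos by -0.04, -0.39 and -0.19, none called. Of the heme synthesis genes, urod and alad fell by 2.46 ± 0.11 and 1.31 ± 0.19 and alas2 at least 2.92-fold, while uros and cpox were not called (-0.31 and -0.15). The band 3 anion exchanger gene slc4a1a stood at 5.46 on the untreated array, 5.26 and 5.37 on the control arrays and 1.05 and 2.76 on the Spt5 arrays. The blood factor gene gata1a, at 5.18 in untreated embryos, fell at least 1.14-fold, whereas lmo2, which acts earlier in blood and vessel progenitors, rose by 1.23 ± 0.12, and klf3 and the nucleotidase gene nt5c2l1 by 0.44 ± 0.13 and 1.17 ± 0.12. As deposited, 0 erythroid genes rose beyond injection and 9 fell.

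**Figure D3:**
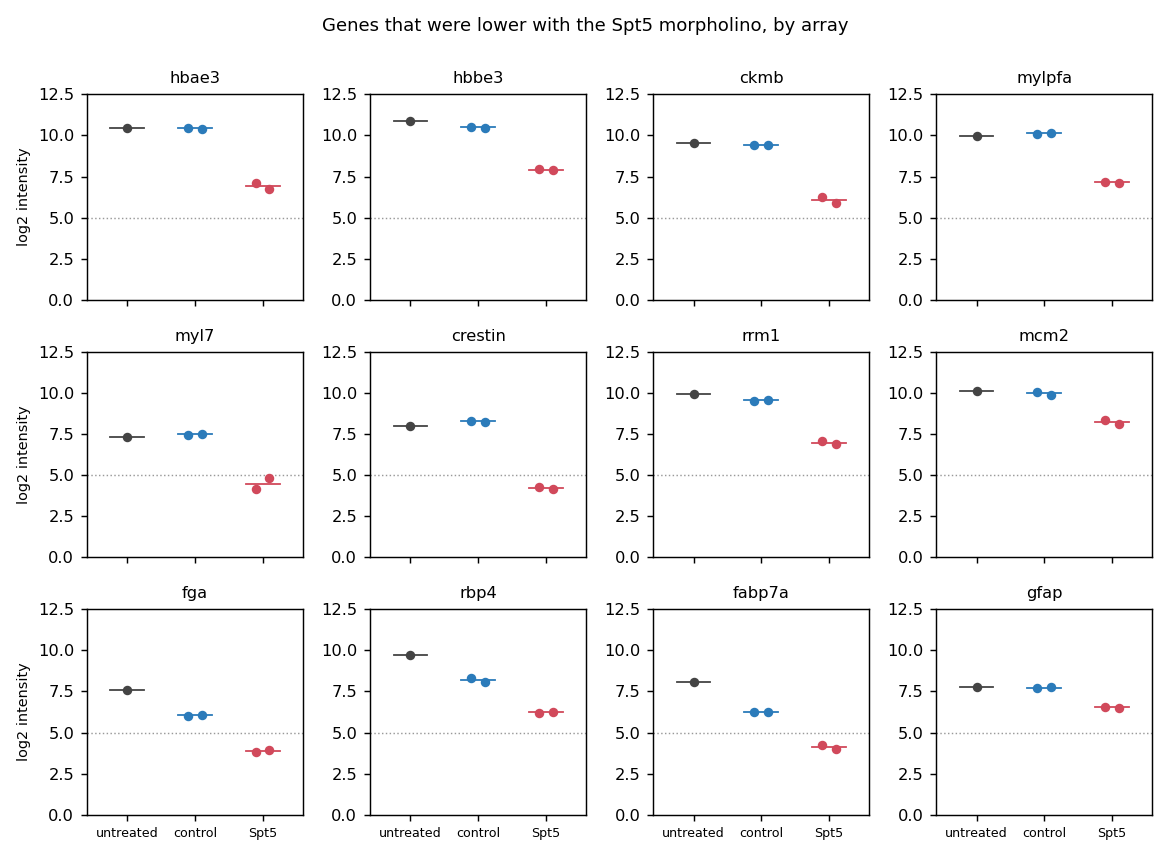
Log2 intensity of 12 genes that were lower with the Spt5 morpholino, on the untreated array (grey), the control morpholino arrays (blue) and the Spt5 morpholino arrays (red); bars are group means and the dotted line is the floor of log2 5. In hbae3, ckmb, mylpfa, crestin, mcm2 and gfap the control arrays lie near the untreated array, while fga, rbp4 and fabp7a fall in 2 steps.

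Some neural crest and pigment genes fell far, while early crest factors were not called lower. Of 16 tested, 5 fell and 2 rose against untreated embryos, 5 and 1 beyond injection, which is 31.2% and 6.25% of the list. The control morpholino gave 0 limma calls, with 4 lower and 0 higher at an unadjusted p under 0.05. crestin, a transcript that marks zebrafish neural crest, stood at 7.96 on the untreated array, 8.28 and 8.26 on the control arrays and 4.30 and 4.15 on the Spt5 arrays, and fell at least 7.78-fold (adjusted p = 6.7e-04). gch2, of pteridine pigment synthesis, had 7.96 untreated, 6.76 and 6.54 control and 2.40 and 3.81 Spt5, a fall of at least 7.79-fold; its Spt5 arrays lay far below the floor, and its control difference of -1.31 ± 0.56 was not called (adjusted p = 0.24). The melanin enzyme gene dct fell at least 2.74-fold. The crest specifier genes sox10 (0.19 ± 0.14) and tfap2a (0.26 ± 0.11) were not called, and foxd3 rose by 0.40 ± 0.12 without exceeding injection.

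Genes of differentiating neurons fell more often than all genes did. Of 26 neuronal differentiation genes tested, 15 fell and 3 rose, 14 and 3 of them (53.8% and 11.5%) beyond injection. limma made 0 calls with the control morpholino, with 2 lower and 0 higher at an unadjusted p under 0.05. The tubulin gene tubb5 fell by 1.48 ± 0.12, mllt11 by 1.5 ± 0.15, the proneural genes ascl1a and ascl1b by 1.2 ± 0.14 and 1.26 ± 0.13 and the growth cone gene gap43 by 0.66 ± 0.12. stmn4 and the synaptic gene snap25a fell at least 1.63-fold and 2.01-fold. The LIM factor genes isl1a and isl2a and the Notch ligand gene dlb rose by 0.47 ± 0.12, 0.50 ± 0.12 and 0.41 ± 0.11, calls that were absent as deposited, with spike-in centring and without either Spt5 replicate. Of 46 neural progenitor and brain patterning genes, 16 fell and 7 rose, 11 and 5 beyond injection, or 23.9% and 10.9% against 18.2% and 16.0% over all genes. As deposited 9 fell and 1 rose beyond injection, and with spike-in centring 20 and 3.

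Among these 46 progenitor and patterning genes, the control morpholino gave 0 rises and 2 falls. At an unadjusted p under 0.05, 2 were higher and 16 lower with it. In 13 of the 46 genes the arrays fell in the order untreated, control, Spt5 without overlap, against 15.9% of all named genes. Because 16 members fell with the Spt5 morpholino, part of this order is built in. fabp7a, a fatty acid binding protein of radial glia, stood at 8.07 on the untreated array, 6.26 and 6.23 on the control arrays and 4.23 and 4.02 on the Spt5 arrays. It fell at least 8.37-fold with the Spt5 morpholino and fell by 1.82 ± 0.14 with the control morpholino (adjusted p = 0.018), with no overlap between the 3 groups. The control call of fabp7a was lost with any 1 injected array left out. Other progenitor genes fell with the Spt5 morpholino and were not called with the control morpholino: the glial filament gene gfap stood at 7.75 on the untreated array, 7.69 and 7.75 on the control arrays and 6.56 and 6.51 on the Spt5 arrays, and zic1 and sox21a fell by 1.29 ± 0.13 and 1.43 ± 0.13. Those that rose were notch1a (1.0 ± 0.17), notch3 (0.51 ± 0.12), irx1b (0.79 ± 0.12), six3b (0.77 ± 0.13) and msi2b (0.71 ± 0.15).

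Several secreted plasma protein genes of the yolk syncytial layer and liver fell with both oligos. Of 30 genes of these tissues and the gut, 14 fell and 7 rose with the Spt5 morpholino, 13 and 6 beyond injection. The latter are 43.3% and 20% of the list, against 18.2% and 16.0% of all named genes. With the control morpholino 5 fell and 0 rose. All 5 genes that fell with the control morpholino fell further with the Spt5 morpholino. The retinol carrier gene rbp4 stood at 9.69 on the untreated array, 8.35 and 8.06 on the control arrays and 6.21 and 6.26 on the Spt5 arrays, a log2 difference from untreated of -3.46 ± 0.16 and, with the control oligo, -1.49 ± 0.16. The fibrinogen chain genes fga, fgb and fgg differed by -1.53 ± 0.13, -1.6 ± 0.15 and -0.99 ± 0.12 with the control morpholino, and with the Spt5 morpholino fga and fgb fell at least 5.97-fold and 6.44-fold and fgg by 2.59 ± 0.12. vtnb, a vitronectin gene, fell at least 2.96-fold, with a control difference of -1.06 ± 0.14. In each of the 5 genes the arrays stood in the order untreated, control, Spt5 without overlap. This follows largely from how the 5 were picked. Downward, that order was found in 14 of the 30 genes of the list and in 15.9% of all named genes.

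Another plasma gene did not follow that order. itih2, an inter-alpha-trypsin inhibitor chain, stood at 7.42 on the untreated array, 7.61 and 7.77 on the control arrays and 3.84 and 3.18 on the Spt5 arrays, so the control arrays were level with or above the untreated one and the Spt5 arrays far below (at least 5.37-fold). The apolipoprotein gene apoea fell by 3.05 ± 0.20, with a control difference of -0.69 ± 0.20 that was not called (adjusted p = 0.14). Other apolipoprotein genes fell less or were not called: apoc1 and apoa2 fell by 0.71 ± 0.12 and 0.60 ± 0.11, while apobb.1, a marker of the yolk syncytial layer, and apoa1a differed from untreated embryos by 0.03 ± 0.11 and -0.03 ± 0.11. Those that rose beyond injection were endoderm factors, a protease and a lipid transfer gene: hnf4a at least 2.07-fold, foxa3 by 0.90 ± 0.12, gata6 and gata5 as above, ctsla by 0.86 ± 0.12 and mttp by 0.81 ± 0.11. These 6 rises became 1 as deposited and 4 with spike-in centring, beside 10 and 16 falls. With any 1 injected array left out, 0 members of the list were called with the control morpholino.

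Regulators of the blastula and gastrula were higher in Spt5 morpholino embryos. Of 45 tested, 26 rose and 3 fell, 22 and 2 beyond injection, or 48.9% and 4.44% of the list. Fewer members passed the floor when an Spt5 array was left out, 41 without replicate 1 and 38 without replicate 2. The share of rises thus rests in part on members that passed through their Spt5 arrays. Without the floor, 7 of the 45 rose beyond injection and 0 fell. The control morpholino gave 2 rises and 1 fall, and none of these calls was kept with any 1 injected array left out. At an unadjusted p under 0.05, 13 members were higher and 5 lower with it. In 20 of the 45 genes the arrays rose in the order untreated, control, Spt5 without overlap, against 17.4% of all named genes. Because 26 members rose with the Spt5 morpholino, part of this order is built in. ved, a homeobox gene that represses dorsal fates, stood at 4.15 on the untreated array, 6.01 and 5.59 on the control arrays and 8.09 and 7.85 on the Spt5 arrays; it rose at least 7.84-fold with the Spt5 and 1.74-fold with the control morpholino. vox, of the same family, stood at 6.97 on the untreated array, 7.35 and 7.32 on the control arrays and 8.87 and 8.77 on the Spt5 arrays, and vent rose at least 1.95-fold. Genes that act on the ventral, Bmp-rich side of the gastrula were among those that rose: bmp2b by 1.29 ± 0.22, the Bmp feedback gene szl, also called with the control morpholino, at least 2.04-fold, gata2a and gata3 by 1.6 ± 0.17 and 1.66 ± 0.11, and foxi1 at least 2.37-fold. bmp4 itself was not called (-0.08 ± 0.17). The Nodal antagonist gene lft2 fell, from 5.06 untreated and 4.97 and 5.21 control to 2.79 and 3.24 on the Spt5 arrays.

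Somite segmentation and Notch genes numbered 29, of which 16 were called higher and 5 lower than untreated, 13 and 4 of them beyond injection, the 13 rises becoming 1 as deposited and 9 with spike-in centring. Against untreated embryos the control morpholino had 0 limma calls, with 7 higher and 2 lower at an unadjusted p under 0.05. The caudal gene cdx4 stood at 8.35 on the untreated array, 8.87 and 8.91 on the control arrays and 9.98 and 9.95 on the Spt5 arrays, and rose by 1.61 ± 0.11. The retinoic acid degrading enzyme gene cyp26a1 rose by 1.48 ± 0.14, while aldh1a2, which makes retinoic acid, fell by 0.64 ± 0.17. tbx16, tbxta and fgf8a rose by 1.14 ± 0.12, 0.99 ± 0.20 and 1.28 ± 0.14. The Notch pathway members went both ways, with the ligand gene dld, the modulator lfng and the feedback gene nrarpb lower (by 1.03 ± 0.11, by 0.56 ± 0.12 and at least 2.44-fold) and notch1a and notch3 higher. As deposited the list had 2 falls beyond injection, and the blastula list 9 rises and 1 fall; without Spt5 replicate 2 they had 8 and 12 rises.

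In the array of untreated embryos at 5 hpf, just before gastrulation, 63.7% of all tested probe sets reached an intensity of 32. The share was 57.5% among probe sets higher beyond injection and 60.1% among those lower, and 43.3% and 52.3% among those at least 2-fold from both other groups. It was 67.6% among probe sets not called against untreated embryos. The shares of the higher and of the lower classes thus both lay below that of all tested probe sets on this 1 array. The 2-fold classes were also dimmer at 21 hpf, with median log2 intensities of 6.07 (higher) and 6.36 (lower) against 6.50 over all tested. The full classes had medians of 6.60 and 6.55. The part of brightness in these shares was not tested.

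The immediate early gene fosab and the lysosomal gene ctsba were lower than untreated with the control morpholino and higher with the Spt5 morpholino. The immediate early genes junba and cebpd were called lower with the control morpholino only. In the immediate early and the lysosome list the control calls were lost with any 1 injected array left out. The immediate early list had 12 rises and 2 falls in 27 genes, 10 and 2 beyond injection, and 0 rises and 3 falls with the control morpholino. fosab, a subunit of AP-1, stood at 6.45 on the untreated array, 5.30 and 5.17 on the control arrays and 8.11 and 7.93 on the Spt5 arrays, so the control arrays were lowest and the Spt5 arrays highest. Its difference was 1.57 ± 0.14 from untreated embryos and 2.78 ± 0.11 from control embryos, and its 4 probe sets ran from 0.63 to 1.57, all called higher. junba and cebpd fell with the control morpholino, by at least 2.01-fold and by 1.16 ± 0.17, and differed from untreated embryos by only -0.52 ± 0.21 and -0.20 ± 0.17 with the Spt5 morpholino, neither called. Both were higher than in control embryos without being called against untreated ones. Members that rose over both were atf3 (at least 2.06-fold), ier2a (1.24 ± 0.16), maff (1.32 ± 0.13) and cebpb (1.11 ± 0.12), and myca fell by 1.17 ± 0.14. The 10 rises beyond injection became 6 without Spt5 replicate 1, 6 with spike-in centring and 3 as deposited.

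Among lysosome and autophagy genes 12 of 20 rose and 3 fell, 10 and 3 beyond injection. The protease gene ctsba stood at 8.09 on the untreated array, 6.68 and 6.58 on the control arrays and 9.34 and 9.27 on the Spt5 arrays, and its control embryos were below untreated ones by 1.46 ± 0.12 (adjusted p = 0.018). Its rise of 1.22 ± 0.12 over untreated embryos was therefore less than its difference of 2.67 ± 0.10 from control embryos. The control call of ctsba was lost with any 1 injected array left out. The autophagy receptor gene sqstm1 stood at 6.17 on the untreated array, 5.81 and 5.94 on the control arrays and 7.64 and 7.70 on the Spt5 arrays, and npc1, which exports cholesterol from lysosomes, at 7.08 on the untreated array, 6.93 and 7.15 on the control arrays and 8.49 and 8.70 on the Spt5 arrays; both lay above the 3 other arrays on each Spt5 array. ctsla, ctsc and psap rose by 0.86 ± 0.12, 0.85 ± 0.21 and 0.62 ± 0.12, and ctsk fell by 0.75 ± 0.14. As deposited 2 members rose and 0 fell beyond injection, with spike-in centring 4 rose and 3 fell, and without Spt5 replicate 2, 7 rose and 0 fell.

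Amino acid and endoplasmic reticulum stress genes rose in 15 of 33 cases and fell in 4, 13 and 3 beyond injection. The control morpholino gave 0 limma calls, with 5 higher and 2 lower at an unadjusted p under 0.05. slc3a2b, the heavy chain of amino acid exchangers, stood at 6.19 on the untreated array, 6.61 and 6.61 on the control arrays and 9.10 and 8.89 on the Spt5 arrays, and rose by 2.80 ± 0.14 (adjusted p = 8.2e-04). ddit4, a brake on mTORC1, rose by 1.47 ± 0.12, the chaperone genes canx and hspa5 by 0.87 ± 0.12 and 0.75 ± 0.13, and manf by 0.86 ± 0.12. The serine synthesis gene phgdh fell by 1.80 ± 0.13 and atf4a, which encodes the factor that drives many of these genes, by 0.73 ± 0.18. The median of the list was 0.32, and it was 0.00 as deposited and -0.04 with spike-in centring, where 3 members and 6 members rose beyond injection. Without Spt5 replicate 1, 7 rose, without Spt5 replicate 2, 8, and without control replicate 1, 9. Of 29 heat shock genes, 5 rose and 4 fell, 2 and 4 beyond injection. The latter are 6.90% and 13.8% of the list, below the 16.0% and 18.2% of all named genes. With the control morpholino 2 rose and 0 fell, and at an unadjusted p under 0.05, 4 were higher and 2 lower. The small heat shock gene hspb1 stood at 9.13 on the untreated array, 9.66 and 9.72 on the control arrays and 11.05 and 11.10 on the Spt5 arrays. The median of this list was 0.06 with the Spt5 and 0.15 with the control morpholino. The Spt5 median turned to -0.27 as deposited and -0.31 with spike-in centring.

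Single genes outside the lists stood among the largest rises. cyp1a, a monooxygenase gene induced through the aryl hydrocarbon receptor, stood at 5.09 on the untreated array, 6.55 and 6.28 on the control arrays and 8.25 and 7.95 on the Spt5 arrays, rising by 3.01 ± 0.19 with the Spt5 and 1.32 ± 0.19 with the control morpholino. bmb, a gene of nuclear fusion in cleavage stages, and the lactate transporter gene slc16a3b had the same order, with rises of at least 4.08-fold and 3.32-fold with the Spt5 and at least 1.22-fold and 1.04-fold with the control morpholino. tob1a, an antiproliferative gene, and the kinase gene mknk2b rose by 2.05 ± 0.16 and 1.65 ± 0.14, with control differences of 0.55 ± 0.16 and 0.04 ± 0.14 that were not called. parp3, of DNA strand break repair, and pik3ip1, an inhibitor of PI3 kinase, rose at least 3.14-fold and 3.40-fold. The peptidase gene cndp2, the transporter-like gene mfsd1l and the chromatin gene gatad2ab rose by 1.74 ± 0.12, 2.04 ± 0.16 and 1.80 ± 0.21. rcvrn3, whose recoverin family acts in photoreceptors, was dim on the 3 other arrays and stood at 6.28 and 6.64 on the Spt5 arrays, a rise of at least 2.75-fold.

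Among the largest falls outside the lists, the modifier gene sumo3a stood at 10.28 on the untreated array, 10.38 and 10.39 on the control arrays and 7.34 and 7.53 on the Spt5 arrays, and ywhaba, a 14-3-3 gene, fell by 2.37 ± 0.15. cdh17, a cadherin of the zebrafish pronephric duct, fell at least 4.30-fold, and mab21l1, an eye gene, at least 4.61-fold. mydgf and the nucleolar gene nvl fell at least 3.50-fold and 3.53-fold. In each of these 6 genes the control difference from untreated was not called, with log2 differences from -0.38 to 0.44.

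**Figure D4:**
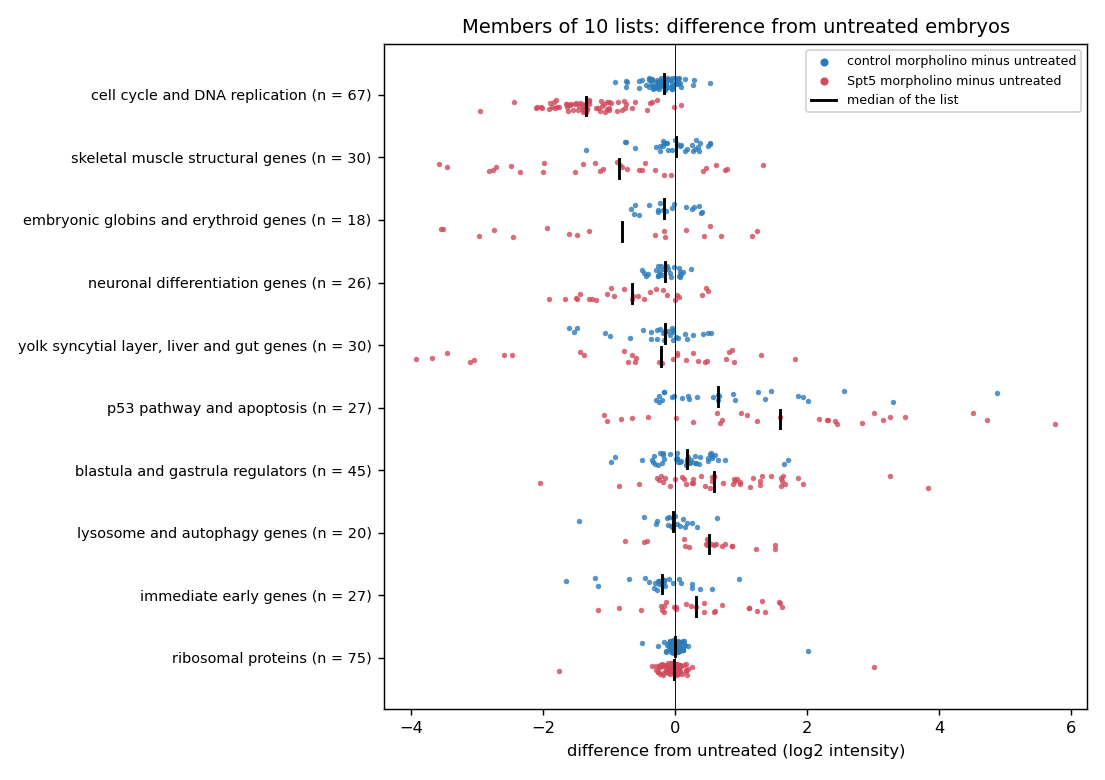
Log2 difference from untreated embryos of each tested member of 10 lists, with the control morpholino in blue and the Spt5 morpholino in red; black bars are list medians. The cell cycle medians are -0.17 and -1.36. Of the 10 lists drawn, the p53 list is the one with a control median well above 0 (0.65). Among lists not drawn, the control median is 0.36 for maternal and germ cell genes and 0.35 for myogenic transcription factors. Ribosomal protein genes stay near 0 with both oligos apart from rps27l and rpl22l1.

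Genes whose differences were shared with injection had varied roles, metabolic and complement genes among them. Each of these differences rests on the 1 untreated array, whose own deviation enters both comparisons alike. Over all probe sets, few control calls remained with any 1 injected array left out, as given above. aldocb, an aldolase gene of glycolysis, stood at 4.34 on the untreated array, 6.68 and 6.70 on the control arrays and 6.88 and 6.79 on the Spt5 arrays; it rose at least 3.56-fold with the Spt5 and 3.23-fold with the control morpholino, and the injected groups differed by 0.14 ± 0.09 (adjusted p = 0.27). gpia, a glucose-6-phosphate isomerase gene, stood at 7.46 on the untreated array, 9.34 and 9.28 on the control arrays and 8.98 and 9.19 on the Spt5 arrays, and fsta, which encodes the activin antagonist follistatin, rose by 1.79 ± 0.14 and 1.58 ± 0.14. The complement gene c7b rose by 1.63 ± 0.15 and 1.61 ± 0.15, while the complement gene c3a.1 fell by 1.43 ± 0.18 and 1.42 ± 0.18. Shared falls were also measured for the lipoprotein lipase gene lpla, by 1.0 ± 0.11 and 0.86 ± 0.11, and the kinetochore gene zwilch, by 0.94 ± 0.12 and 0.82 ± 0.12. The cytochrome gene cyb5b fell by 1.19 ± 0.15 with the Spt5 and 1.06 ± 0.15 with the control morpholino. fbp1a, of gluconeogenesis, fell at least 1.86-fold with the Spt5 morpholino and by 0.99 ± 0.16 on the log2 scale with the control morpholino. rsrp1 rose by 1.66 ± 0.13 with the Spt5 and 1.47 ± 0.13 with the control morpholino. All of these genes were called against untreated embryos with either oligo and were not called between the oligos.

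In a few genes the control embryos lay furthest from untreated embryos. ndufa4b had 3.12 untreated, 5.50 and 5.90 control and 4.05 and 4.26 Spt5. Its untreated and Spt5 arrays all lay below the floor, so its difference between those groups is among dim values. The prostaglandin synthase gene ptgdsb.1 stood at 5.61 on the untreated array, 7.23 and 7.34 on the control arrays and 6.81 and 6.60 on the Spt5 arrays. The collagen chaperone gene serpinh1b differed from untreated by 1.14 ± 0.14 with the control and 0.68 ± 0.14 with the Spt5 morpholino. Lower and further with the control oligo were apom, an apolipoprotein gene, at -1.77 against -1.47, syncripl at -1.37 against -0.54, and sox19b at -0.96 against -0.55. In these genes the difference between the morpholinos had the opposite sign to both differences from untreated embryos. Of the named genes beyond injection, 6 had a control call in the opposite direction: ctsba, fosab and the sorting nexin gene snx14 among the higher, and the helicase gene ddx42, the peptidase gene dnpep and the condensin gene ncapd3 among the lower; they were listed after their values were seen. ddx42 stood at 6.06 on the untreated array, 6.92 and 7.07 on the control arrays and 3.78 and 3.71 on the Spt5 arrays.

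The remaining lists lay closer to the background or were split. Among 31 epidermis and periderm genes, 12 rose and 6 fell, 9 and 4 beyond injection: the keratin gene krt97 and the annexin gene anxa1a rose by 1.55 ± 0.16 and 1.21 ± 0.11, and the ictacalcin genes icn and icn2 fell by 2.11 ± 0.13 and 1.90 ± 0.14. agr2, of mucus-secreting cells, fell in steps, with 7.38 untreated, 6.41 and 6.40 control and 5.05 and 5.10 Spt5. As deposited 0 members rose and 4 fell, with spike-in centring 1 and 9, and without Spt5 replicate 2, 3 rose; the median of 0.26 turned to -0.06 and -0.10 under those scalings. In the notochord and hatching gland list of 16, the notochord factor gene noto and the laminin gene lamb1a rose by 1.46 ± 0.14 and 1.63 ± 0.11. The sheath collagen genes col2a1a and col9a2 fell by 0.96 ± 0.14 and 0.96 ± 0.13. Beyond injection this list had 4 rises and 5 falls, 25% and 31.2%, against 16.0% and 18.2% of all named genes. As deposited it had 0 rises and 3 falls beyond injection. Hox genes gave 3 rises and 3 falls beyond injection in 31, with hoxb10a higher by 1.34 ± 0.16 and hoxc13a lower by at least 2.81-fold. Vascular genes gave 2 and 2 in 9, with fli1 lower by 1.25 ± 0.12, and the 9 myeloid genes 3 and 1, of which the protease gene mmp9 rose at least 2.14-fold and cebpa by 1.12 ± 0.11. Maternal and germ cell genes gave 3 and 1 in 10 tested of 29 on the array, with the abundant RNA-binding gene ybx1 lower by 0.95 ± 0.17; without Spt5 replicates 1 and 2, 1 and 0 of them rose.

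Of 27 genes of DSIF, NELF and elongation, 8 rose and 4 fell against untreated embryos, 4 and 4 beyond injection. limma made 0 calls with the control morpholino, with 4 higher and 0 lower at an unadjusted p under 0.05. ell2 and ell, of the super elongation complex and its relatives, rose by 1.59 ± 0.11 and 1.13 ± 0.13, and supt6h and tcea1 by 0.46 ± 0.12 and 0.50 ± 0.13. leo1, of the Paf1 complex, stood at 7.97 on the untreated array, 7.87 and 8.22 on the control arrays and 5.89 and 6.48 on the Spt5 arrays, and the RNA polymerase subunit gene polr2f, the FACT subunit gene ssrp1a and the NELF subunit gene nelfe fell by 1.68 ± 0.11, 1.06 ± 0.12 and 0.79 ± 0.12. The shares of 14.8% in each direction are near the 16.0% and 18.2% of all named genes.

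Ribosomal protein genes had few calls, while the falls in other housekeeping lists were near the background. Of 75 ribosomal protein genes, 1 rose and 1 fell, both beyond injection: rps27l, described above, and rpl22l1, which fell by 1.76 ± 0.11. The ribosomal median was -0.02 in the main setting and -0.57 with spike-in centring, where 29 members fell beyond injection. Oxidative phosphorylation genes gave 4 rises and 15 falls beyond injection in 84, splicing factors 4 and 14 in 72, translation factors 4 and 12 in 70, and proteasome subunits 1 and 5 in 41. Falls thus made up 17.9%, 19.4% and 17.1% of the first 3 of these lists, against 18.2% of all named genes, and rises 4.76%, 5.56% and 5.71% against 16.0%. With spike-in centring the falls in these 4 lists numbered 39, 34, 33 and 16. Single members fell by more than the lists did: hnrnpabb by 2.28 ± 0.12, the initiation factor genes eif3ja and eif3c by 1.71 ± 0.13 and 1.59 ± 0.14, psmd9 by 1.88 ± 0.21 and atp5mea by 1.91 ± 0.17. Cholesterol synthesis gave 1 and 1 in 7 genes, and the interferon list 2 and 0 in 5, isg15 being 1 of the rises.

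**Figure D5:**
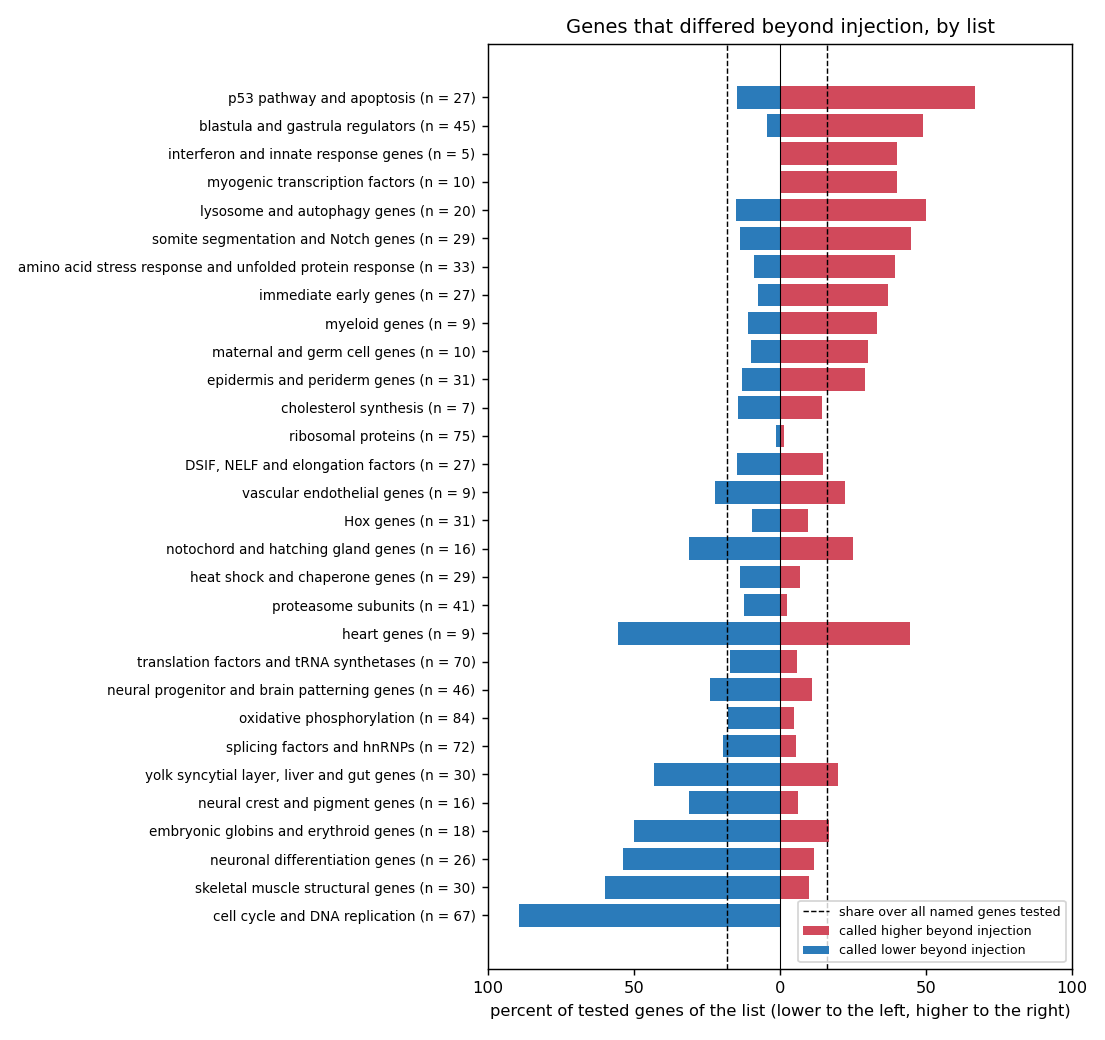
Percent of the tested genes of each of 30 lists called higher (red, to the right) or lower (blue, to the left) than both untreated and control morpholino embryos, with the number tested; dashed lines mark the shares over all named genes, 16.0% higher and 18.2% lower. The cell cycle, muscle, heart and neuronal lists reach furthest to the lower side and the p53, lysosome and blastula lists to the higher side.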

How the data were processed

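RNA of whole zebrafish embryos was measured on 6 Affymetrix arrays, grouped by sample title. Per the file, the deposited values are linear probe set intensities. Per the submitters' processing notes GCRMA was used by the authors; no version, setting or later scaling step is given in the sources used here. The intensity columns did not share a distribution, so log2 values of the 15502 probe sets that are not Affymetrix controls were quantile normalized over the 5 arrays at 21 hpf. Probe sets of log2 5 or more on at least 2 arrays (8701) were fitted with limma 3.58.1 in R 4.3.3, with the 3 groups at 21 hpf, Benjamini-Hochberg adjustment and two-sided tests. There were 2 residual and 3.05 prior degrees of freedom, and the lone untreated array was taken to have the spread of the morpholino groups. The number of arrays limits the precision; the median SD within a group was 0.11 on the log2 scale. The filter left out 158 probe sets above the floor on the untreated array alone. It let in probe sets above the floor on the 2 Spt5 arrays alone, such as those of gadd45aa, parp3 and tnnt3b. Written as beyond injection are differences called against both untreated and control embryos in 1 direction. The fit was tested on simulated data.

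Symbols came from the platform annotation, updated through Entrez identifiers: 10795 probe sets had 1 symbol, 135 several and 4572 none. Of a gene's probe sets the brightest over the 5 arrays was used; 847 genes had more than 1 tested probe set, and 10 of these were called in both directions. Genes named by rule were the 12 measured and 8 bounded genes with the largest smaller difference to both other groups in each direction, the 6 largest shared and 5 largest control-further genes in each direction, the 2 members of each list furthest from untreated embryos in each direction among those beyond injection, and supt5h. Other genes were named after their values were seen. The members and lists were chosen with earlier results of these data known. S6 kinase genes were left out of the ribosomal list after values were seen. Alternatives were the scaling, the floor, quantile normalization over 6 arrays, limma with a trend and robust variance, a replicate block and leaving out each injected array. The untreated array stayed in every fit.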

Additional observations from a re-analysis of the deposited data

How the results depend on the processing

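Counts of calls depended on scaling, on the floor and on leaving out single arrays, which also lowers the residual degrees of freedom. Compared with the main 2001 probe sets higher and 1822 lower than untreated, 1456 and 1467 beyond injection and 250 called with the control morpholino, values as deposited gave 255 higher, 157 higher beyond injection and 58 with the control morpholino. Spike-in centring gave 926 higher and 3408 lower, and 554 and 2810 beyond injection. No floor gave 293 and 356, 146 and 302, and 0 with the control morpholino, where 2013 had an unadjusted p under 0.05 against 2032 in the main setting. The control count was 141 with the floor on at least 1 array, 490 with a floor of log2 6, 884 with trend and robust variance and 5 with the replicate block. Of the probe sets beyond injection, all 1467 lower ones stayed called with spike-in centring, as did 554 of the 1456 higher ones; as deposited 927 and 155 did.

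List counts are members called beyond injection in either direction, main value first. As deposited: myogenic factors 4 to 0, heart 9 to 5, p53 22 to 13, immediate early 12 to 4, heat shock 6 to 2, amino acid stress 16 to 5, blastula 24 to 10, maternal 4 to 1, neural progenitor 16 to 10, somite 17 to 3, Hox 6 to 2, notochord 9 to 3, epidermis 13 to 4, yolk and liver 19 to 11, myeloid 4 to 2, elongation 8 to 5, ribosomal 2 to 1, oxidative phosphorylation 19 to 5, cholesterol 2 to 1, lysosome 13 to 2, interferon 2 to 1, proteasome 6 to 2, splicing 18 to 6 and translation 16 to 5. With no floor: erythroid 12 to 6, muscle 21 to 7, neural crest 6 to 2, cell cycle 60 to 29, neuronal 17 to 3 and vascular 4 to 0, and then myogenic factors 0, heart 1, p53 11, immediate early 3, heat shock 1, amino acid stress 4, blastula 7, maternal 0, neural progenitor 3, somite 2, Hox 1, notochord 2, epidermis 3, yolk and liver 9, myeloid 0, elongation 2, oxidative phosphorylation 0, cholesterol 1, lysosome 2, interferon 1, proteasome 0, splicing 1 and translation 3. Spike-in centring gave myogenic factors 2, heat shock 10, maternal 2, Hox 12, ribosomal 30, oxidative phosphorylation 39, lysosome 7, interferon 1, proteasome 16, splicing 36 and translation 34. A floor of log2 6 gave maternal 2, myeloid 2 and interferon 1. Trend and robust variance gave epidermis 20, ribosomal 17, interferon 1, proteasome 11, splicing 28 and translation 25, and median centring cholesterol 1 and proteasome 3.

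With single injected arrays left out, 1170 to 1957 probe sets were higher, 642 to 1167 higher beyond injection and 2 to 10 called with the control morpholino. Lists then ranged over 9 to 13 (amino acid stress), 10 to 15 (oxidative phosphorylation), 1 to 2 (cholesterol), 2 to 4 (proteasome), 6 to 14 (translation), 7 to 11 (immediate early), 1 to 3 (maternal), 1 to 2 (interferon), 1 to 5 (myogenic factors), 13 to 23 (blastula), 10 to 16 (somite), 7 to 11 (epidermis) and 7 to 9 (lysosome). Over the 8701 tested probe sets, deviations from the group mean correlated at 0.247 between Spt5 replicate 1 and control replicate 1, which does not establish a pairing. Mean log2 spike-in intensities were 7.89 and 7.83 on replicate 1 of the Spt5 and control groups, and 8.29 and 8.24 on replicate 2. Whether same-numbered arrays shared a run was not tested. The replicate block, which placed the untreated array with replicate 1, moved the control count alone past 1.5 times, from 250 to 5. It also lowers the residual degrees of freedom.

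Of 148 genes named by rule, 39 lost a call as deposited, 76 with no floor, 9 with spike-in centring and 3 to 13 with single arrays left out. scarb2c differed from untreated embryos by 0.43 in the main setting and -0.0098 with spike-in centring, not called; its untreated and Spt5 arrays all lay below the floor, so this change of sign is among dim values. The cause of these shifts was not tested.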
